A study of Bos taurus with 36 samples.

Results

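The members described here were 9 genes of transforming growth factor beta (TGF-β) signalling: the ligands TGFB1, TGFB2 and TGFB3, the activin subunit INHBA, the receptors TGFBR1 and TGFBR2, and the signal transducers SMAD2, SMAD3 and SMAD7. They were chosen by name, and every probe set that the array annotation gives a single one of these gene symbols was taken, which gave 10 probe sets of 8 genes out of 13292 probe sets with a single symbol and 9155 genes. TGFBR2 and SMAD3 had 2 probe sets each, called A (the one with the higher mean) and B, and the other 6 genes had 1 each. SMAD7, the inhibitory SMAD of the pathway, was not matched and was not analysed here. In 6 multiparous Holstein cows the right side of the udder was milked 4 times daily (4×) and the left side 2 times daily (2×) for the first 21 days of lactation, and both sides were milked 2 times daily afterwards. A gland of each side was biopsied in every cow on lactation days 21, 23 and 40, which gave 6 groups of 6 biopsies, and RNA of each biopsy was hybridised to 1 bovine GeneChip array. The groups were 4× and 2× glands on day 21, during frequent milking, and formerly 4× and always 2× glands on days 23 and 40, after it had ceased. All 4× glands were on the right and all 2× glands on the left, and milking frequency and udder side therefore cannot be told apart. Biopsies of day 23 came from fore glands and those of the other days from rear glands, and the step from day 21 to day 23 cannot be told apart from gland position. The rear glands of day 40 had already been biopsied on day 21. The step from day 21 to day 40 therefore cannot be told apart from that earlier biopsy.

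TGF-β ligands are secreted in a latent form bound to matrix and cell surface proteins, and once released they bring together the type II receptor TGFBR2 and the type I receptor TGFBR1, which phosphorylates SMAD2 and SMAD3. These enter the nucleus with SMAD4 and regulate transcription, while SMAD7 closes the loop by blocking the type I receptor. In the mammary gland the pathway is known for restraining epithelial growth, for its part in involution and for the matrix of the stroma, and activins, dimers of INHBA and related subunits, signal through their own receptors to the same SMADs.

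All values are the authors' log2 signals, and differential expression is the 4× minus 2× difference within a cow, tested with limma over all 24016 probe sets that are not controls. Medians of the 36 arrays lay between 6.04 and 6.15. A probe set is called higher or lower below where its unadjusted limma p was under 0.05. At an adjusted p under 0.05 limma called 0 probe sets of any gene on days 21, 23 and 40, against 3826, 635 and 4910 at an unadjusted p under 0.05, so that each member call below is one that did not pass the adjustment. Markers of the milk secreting epithelium (casein and whey protein genes and others, 13 probe sets) were among the brightest on the array, with a mean log2 signal between 12.73 and 13.33 in every biopsy. In these bulk biopsies, fewer cells of a type and less RNA per cell cannot be told apart.

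Over the 36 arrays the probe set means of the ligands were 6.19 for TGFB1 (probe set Bt.469.1.A1_at), 8.38 for TGFB2 (Bt.6438.1.A1_at), 4.51 for TGFB3 (Bt.12650.1.S1_at) and 5.71 for INHBA (Bt.12760.1.S1_at). Those of the receptors were 5.84 for TGFBR1 (Bt.28.1.S1_at), 9.52 for TGFBR2 A (Bt.1789.1.S1_at) and 5.53 for TGFBR2 B (Bt.28103.1.S1_at). Those of the SMADs were 7.39 for SMAD2 (Bt.3604.1.A1_at), 6.12 for SMAD3 A (Bt.20844.1.A1_at) and 4.91 for SMAD3 B (Bt.3523.1.A1_at). TGFB3 and SMAD3 B lay under a log2 signal of 5, as did 7491 of all probe sets, and are near the background of the array. TGFB2 had the widest range of the 10 over single biopsies, 1.90 log2 units between its lowest value of 7.66 and its highest of 9.56, and SMAD2 had the narrowest, 0.53 log2 units. In each comparison of 2 groups of biopsies, the values of the groups overlapped for all 10 probe sets, as they did for nearly all probe sets of the array (0.0375% to 0.454% did not overlap). The plot of signals by milking frequency and day shows these values for each cow.

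**Figure D1:**
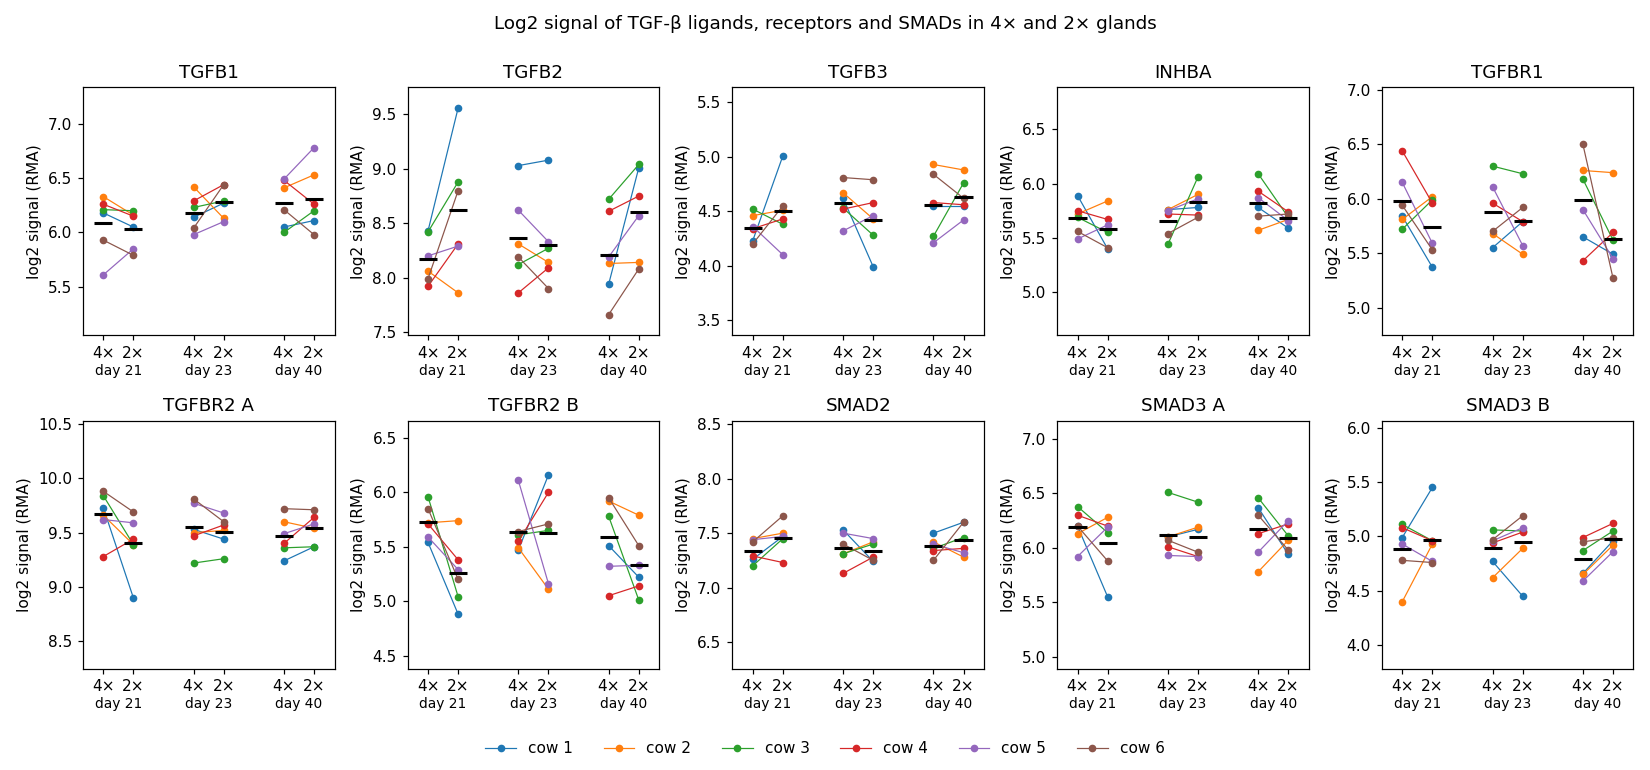
Log2 signal (RMA, y axis) of the 10 member probe sets in 4× and 2× glands on days 21, 23 and 40 (x axis); each point is 1 biopsy, lines join the glands of 1 cow, and black bars are group means (n = 6). The 2× gland of cow 1 on day 21 held the highest TGFB2 signal (9.56) and the lowest TGFBR2 A signal (8.90) of the 36 biopsies.

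On day 21, at the end of frequent milking, the ligand TGFB2 was lower and the type II receptor TGFBR2 higher in the 4× glands than in the 2× glands, and no other member was called. That is 3 of 10 probe sets, against 15.9% of all probe sets called on that day. By direction, 2 of 10 were higher, against 8.02% of all, and 1 of 10 was lower, against 7.91% of all. The median difference of the members was 0.08, against 0.02 over all probe sets.

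TGFB2, one of the TGF-β isoforms, ranged from 7.92 to 8.43 with a median of 8.13 in 4× glands on day 21, against 7.86 to 9.56 with a median of 8.55 in 2× glands. The 2× glands of cows 1, 3 and 6 lay above every 4× gland, the 2× glands of cows 4 and 5 lay within the range of the 4× glands, and the 2× gland of cow 2 was below them all. The differences within cows 1 to 6 were -1.13, 0.20, -0.46, -0.39, -0.09 and -0.81, with a mean of -0.45 (SE 0.14, 95% interval -0.73 to -0.16, n = 6 cows), a ratio of 0.734. In limma the unadjusted p was 0.00366 and the adjusted p 0.181. With the spread of day 21 only, the unadjusted limma p was 0.0172. The 2× glands were spread more widely (SD 0.59) than the 4× glands (SD 0.22), and without the day 21 pair of cow 1 the difference was -0.31 and was still called.

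TGFBR2, the type II receptor that binds the ligand first, was higher in the 4× glands by both of its probe sets. TGFBR2 A ranged from 9.28 to 9.88 with a median of 9.70 in 4× glands, against 8.90 to 9.69 with a median of 9.41 in 2× glands. The 4× gland of cow 4 was the only one of its group below the 2× median, and the 2× gland of cow 1 was the lowest biopsy. Within cows 1 to 6 the differences of TGFBR2 A were 0.83, 0.28, 0.45, -0.15, 0.03 and 0.20, with a mean of 0.27 (SE 0.09, 95% interval 0.09 to 0.46, n = 6; limma, unadjusted p = 0.00634, adjusted p = 0.182). These differences had an SD of 0.34 over cows, against 0.11 on day 23 and 0.11 on day 40. With the spread of day 21 only, the unadjusted limma p of TGFBR2 A was 0.0487. TGFBR2 B ranged from 5.54 to 5.96 with a median of 5.72 in 4× glands, against 4.88 to 5.74 with a median of 5.25 in 2× glands. All 4× glands lay above 5 of the 6 2× glands, and only the 2× gland of cow 2 reached into their range. Its differences within cows 1 to 6 were 0.66, -0.02, 0.92, 0.33, 0.29 and 0.65, with a mean of 0.47 (SE 0.16, 95% interval 0.15 to 0.80, n = 6; limma, unadjusted p = 0.00631, adjusted p = 0.182), a ratio of 1.39. With the spread of day 21 only, the unadjusted limma p of TGFBR2 B was 0.00268. The 2 probe sets thus gave the same direction, but that of the brighter one depended on cow 1: without the day 21 pair of cow 1, TGFBR2 A differed by 0.16 and was not called, while TGFBR2 B differed by 0.44 and was.

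The other members were not called on day 21. TGFBR1, the type I receptor that carries the signal into the cell, had a mean difference of 0.24 (95% interval -0.07 to 0.54) and a higher signal in the 4× gland of 4 cows. TGFB1 differed by 0.06 (-0.12 to 0.23), TGFB3 by -0.14 (-0.39 to 0.10) and INHBA by 0.10 (-0.08 to 0.29). The transducers were not called either, SMAD2 with a difference of -0.12 (-0.27 to 0.03) with a lower signal in the 4× gland of 5 of 6 cows, SMAD3 A with one of 0.15 (-0.07 to 0.37) and SMAD3 B with one of -0.09 (-0.28 to 0.10).

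**Figure D2:**
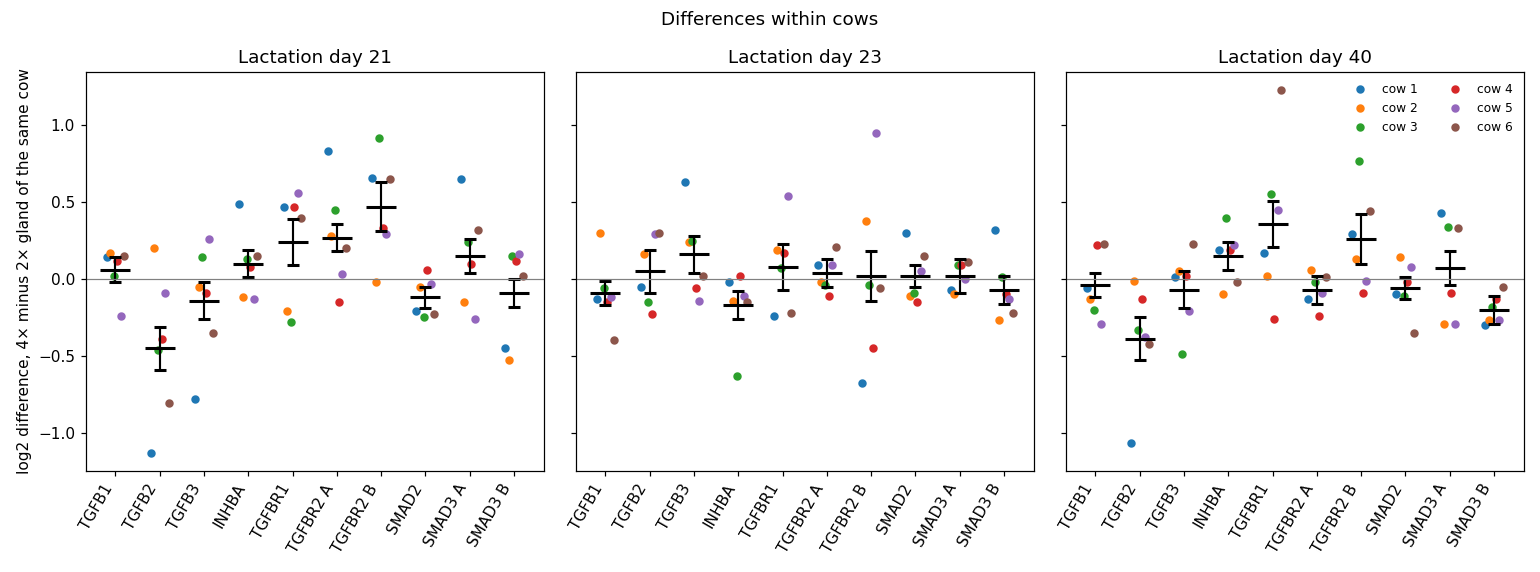
Differences within cows (log2 units, 4× gland minus 2× gland of the same cow, y axis) for each member probe set (x axis) on days 21, 23 and 40; points are the 6 cows, and black bars are means with the standard error of the limma fit. On day 21 the TGFB2 mean lay at -0.45 and the TGFBR2 means at 0.27 (A) and 0.47 (B), and on day 23 these 3 means lay between 0.02 and 0.05.

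On day 23, when both sides had been milked 2× since day 21, none of the 10 member probe sets was called, against 2.64% of all probe sets. TGFB2 ranged from 7.86 to 9.03 with a median of 8.25 in formerly 4× glands, against 7.90 to 9.08 with a median of 8.21 in 2× glands. Both glands of cow 1 were the highest of their groups, and the mean difference was 0.05 (SE 0.14, 95% interval -0.23 to 0.34), positive in 3 cows and negative in 3. TGFBR2 A differed by 0.04 (-0.15 to 0.22) and TGFBR2 B by 0.02 (-0.31 to 0.34), the second with differences from -0.68 in cow 1 to 0.95 in cow 5.

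INHBA, the subunit that forms activin A, came closest to a call on day 23. Its signal ranged from 5.44 to 5.76 with a median of 5.74 in formerly 4× glands, against 5.69 to 6.06 with a median of 5.82 in 2× glands. The 4× gland was lower in 5 of 6 cows, and the difference of cow 3, -0.63, lay far from those of the other cows, which were between -0.15 and 0.02. The mean difference was -0.17 (95% interval -0.36 to 0.01; limma, unadjusted p = 0.0647, adjusted p = 1). The remaining members had mean differences between -0.09 and 0.16.

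On day 40, TGFB2 was again lower in the formerly 4× glands, TGFBR1 was higher, and SMAD3 was lower by its dimmer probe set. These 3 calls of 10 compare with 20.4% of all probe sets called on that day (1 higher, against 11.6% of all, and 2 lower, against 8.86% of all), and a share this near the background is no result about the members as a group. The median difference of the members was -0.05, against 0.03 over all probe sets.

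TGFB2 ranged from 7.66 to 8.72 with a median of 8.16 in formerly 4× glands on day 40, against 8.08 to 9.04 with a median of 8.66 in 2× glands. The formerly 4× gland was the lower one in 6 of 6 cows, although the group ranges overlapped over much of their length. Within cows 1 to 6 the differences were -1.07, -0.01, -0.33, -0.13, -0.38 and -0.42, with a mean of -0.39 (SE 0.14, 95% interval -0.68 to -0.11, n = 6), a ratio of 0.763 (limma, unadjusted p = 0.00943, adjusted p = 0.182). Cow 1 had the largest difference on this day as on day 21, and without cow 1 the mean was -0.26 and still called. Cow 2 stood at the other end on both days.

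TGFBR1 ranged from 5.43 to 6.50 with a median of 6.04 in formerly 4× glands on day 40, against 5.27 to 6.24 with a median of 5.56 in 2× glands. Both the highest 4× gland and the lowest 2× gland were those of cow 6, and cow 4 went the other way. The differences within cows 1 to 6 were 0.17, 0.02, 0.55, -0.26, 0.45 and 1.23, with a mean of 0.36 (SE 0.15, 95% interval 0.05 to 0.67, n = 6; limma, unadjusted p = 0.0236, adjusted p = 0.204). Without cow 6 the mean was 0.19, without cow 3 it was 0.32, and with arrays scaled to reference genes it was 0.33, and none of these was called.

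SMAD3 B, the dimmer probe set of this receptor-activated SMAD, ranged from 4.59 to 4.99 with a median of 4.76 in formerly 4× glands on day 40, against 4.86 to 5.12 with a median of 4.98 in 2× glands. The 4× gland was lower in 6 of 6 cows, and the 4× glands of cows 1, 2 and 5 lay below every 2× gland. The mean difference was -0.20 (SE 0.09, 95% interval -0.39 to -0.01; differences in cows 1 to 6 of -0.30, -0.27, -0.18, -0.13, -0.27 and -0.05; limma, unadjusted p = 0.0416, adjusted p = 0.232). SMAD3 A, the brighter probe set of the same gene, differed by 0.07 (-0.15 to 0.29), so that the 2 probe sets of SMAD3 did not give the same direction. The call on SMAD3 B was lost in 8 of 13 alternative settings.

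The other members were not called on day 40. TGFBR2 A differed by -0.07 (-0.25 to 0.12) and TGFBR2 B by 0.26 (-0.07 to 0.58), and the 2 probe sets of the receptor lay on opposite sides of 0. INHBA differed by 0.15 (-0.04 to 0.33) with 4 of 6 cows higher, TGFB1 by -0.04 (-0.22 to 0.14), TGFB3 by -0.07 (-0.31 to 0.17) and SMAD2 by -0.06 (-0.21 to 0.09).

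The change in differential expression from day 21 to day 23 asks whether the difference between glands moved when frequent milking ended, and fore glands had then taken the place of rear glands. The fit of this change, and of that to day 40, held no cow term. The SE and p therefore do not pair the days of a cow, unlike the changes shown for single cows. TGFB2 and INHBA were called, 2 of 10 probe sets against 10.8% of all probe sets. The change was upward for 1 (5.65% of all) and downward for 1 (5.15% of all). For TGFB2 the change was 0.50 (SE 0.19, 95% interval 0.10 to 0.90; limma, unadjusted p = 0.0172, adjusted p = 0.403), with changes of 1.08, -0.04, 0.31, 0.16, 0.38 and 1.10 in cows 1 to 6. Cows 1 and 6 had by far the largest changes, and without cow 6 (0.38) or without the day 21 pair of cow 1 (0.36) the change was not called. Nor was it called with cow as a fixed block on the 36 arrays or with no replicate block. For INHBA the change was -0.27 (SE 0.12, 95% interval -0.53 to -0.01; limma, unadjusted p = 0.0398, adjusted p = 0.443), with -0.51, -0.02, -0.76, -0.06, 0.02 and -0.30 in cows 1 to 6. It was not called without cow 1, cow 3 or cow 6 or without the day 21 pair of cow 1, and lay between -0.33 and -0.18 in the alternative settings. TGFBR2 B changed by -0.46 (-0.92 to 0.00) with an unadjusted p of 0.0504 in limma and was not called.

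From day 21 to day 40, both in rear glands, 1 of 10 probe sets changed in differential expression, against 6.01% of all probe sets. This was TGFBR2 A, which had been called higher in 4× glands on day 21. The change was -0.34 (SE 0.13, 95% interval -0.60 to -0.08; limma, unadjusted p = 0.0142, adjusted p = 0.789), and in cows 1 to 6 it was -0.96, -0.22, -0.47, -0.08, -0.12 and -0.18. It was negative in 6 of 6 cows and was not called without cow 1 (-0.21). TGFB2 changed by 0.06 (-0.35 to 0.46) over the same time, so that its lower signal on day 40 did not differ detectably in size from that on day 21.

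Levels were also followed by day within the 4× and within the 2× glands, with cow as a block. In 4× glands, 1 of 10 probe sets differed between day 40 and day 21, against 8.68% of all probe sets. TGFBR2 A had a median of 9.45 on day 40 (9.24 to 9.72), against 9.70 on day 21 (9.28 to 9.88). It was lower on day 40 in every cow but cow 4, with a mean difference of -0.20 (SE 0.09; differences in cows 1 to 6 of -0.49, -0.06, -0.48, 0.12, -0.13 and -0.16; limma, unadjusted p = 0.0372, adjusted p = 0.535). The call was lost in 6 of 12 alternative settings, among them those without cow 1, cow 3, cow 5 or cow 6. Between day 23 and day 21, 0 of 10 were called in 4× glands, against 3.8% of all probe sets.

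In 2× glands, which were milked at the same frequency throughout, 1 of 10 probe sets differed between day 40 and day 21, against 6.79% of all, and 3 of 10 between day 23 and day 21, against 16.1% of all. TGFB1, the isoform most studied in the pathway, had a median of 6.23 on day 40 (5.98 to 6.78), against 6.10 on day 21 (5.79 to 6.20). It was higher on day 40 by 0.28 (SE 0.12; 0.07, 0.38, 0.00, 0.12, 0.93 and 0.20 in cows 1 to 6; limma, unadjusted p = 0.0211, adjusted p = 0.651), and it was not called without cow 2 or without cow 5 (0.15 to 0.34 over the alternative settings). On day 23 its median was 6.28 (6.10 to 6.44), higher than on day 21 by 0.25 (SE 0.12; 0.22, -0.03, 0.09, 0.29, 0.25 and 0.65 in cows 1 to 6; limma, unadjusted p = 0.0414, adjusted p = 0.291). This call was lost without cow 1, cow 4 or cow 6, with no replicate block and with arrays scaled to reference genes.

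INHBA in 2× glands had a median of 5.82 on day 23 (5.69 to 6.06), against 5.58 on day 21 (5.40 to 5.84). It was higher on day 23 in 6 of 6 cows, by 0.38, 0.06, 0.51, 0.03, 0.25 and 0.28 in cows 1 to 6, with a mean of 0.25 (SE 0.09, 95% interval 0.08 to 0.43; limma, unadjusted p = 0.00599, adjusted p = 0.185). This difference was called in all 12 alternative settings tried. In 4× glands the same step was -0.02 (-0.20 to 0.15), and the test of the difference between these steps is the change in differential expression given above. TGFBR2 B was higher on day 23 in 2× glands by 0.37 (SE 0.17; limma, unadjusted p = 0.0378, adjusted p = 0.281) in 4 of 6 cows, with differences from -0.63 to 1.28, and was not called without cow 1, cow 3, cow 4 or cow 6.

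Ordered by group mean, TGFB2 stood at 8.17 ± 0.22 (SD, n = 6) in 4× glands on day 21, 8.21 ± 0.40 in 4× glands on day 40, 8.30 ± 0.41 in 2× glands on day 23, 8.36 ± 0.41 in 4× glands on day 23, 8.60 ± 0.42 in 2× glands on day 40 and 8.62 ± 0.59 in 2× glands on day 21. The rear glands of the 4× side were thus lowest, those of the 2× side highest and the fore glands of day 23 between them, and neighbours in this order differed by 0.02 to 0.24, less than the SD of either. For TGFBR2 A the order ran from 9.67 ± 0.22 in 4× glands on day 21 down to 9.40 ± 0.27 in 2× glands on day 21, with the other 4 groups between 9.47 and 9.55, and no neighbours differed by more than 0.12. For SMAD2 the 6 group means lay between 7.34 and 7.46, the closest of any member.

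Further lists of the pathway, 6 in number and chosen with earlier results of these data known, place the members among the genes around them, and the plot of the pathway lists shows every probe set. Proteins of latency and activation hold the ligand in the matrix or release it. On day 21, 3 of their 26 probe sets (15 of 19 genes measured) were higher and 8 lower, or 42.3% against 15.9% of all probe sets, with a median of -0.07. The integrin subunit ITGB6, part of an activator of latent TGF-β, was lower, with -0.46 (SE 0.13; 6 of 6 cows; limma, adjusted p = 0.18) on day 21, 0.33 and called higher on day 23, and -0.26 on day 40, and the latent binding protein LTBP1 had a difference of -0.32 (SE 0.12; 6 of 6 cows lower; adjusted p = 0.21). NRROS, which holds latent TGF-β on macrophages and microglia, was higher by 0.35 (SE 0.09; 6 of 6 cows; adjusted p = 0.18), with 0.05 on day 23 and 0.06 on day 40. The 6 probe sets of THBS1, a matrix protein that activates latent TGF-β, went in both directions: 3 were called lower and 2 higher on day 21, among them Bt.5301.1.S1_at with -1.08 (0.20 on day 23, -0.65 on day 40) and Bt.8563.1.S1_at with 0.40 (-0.11 on day 23, 0.12 on day 40), so that no direction is given for the gene.

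**Figure D3:**
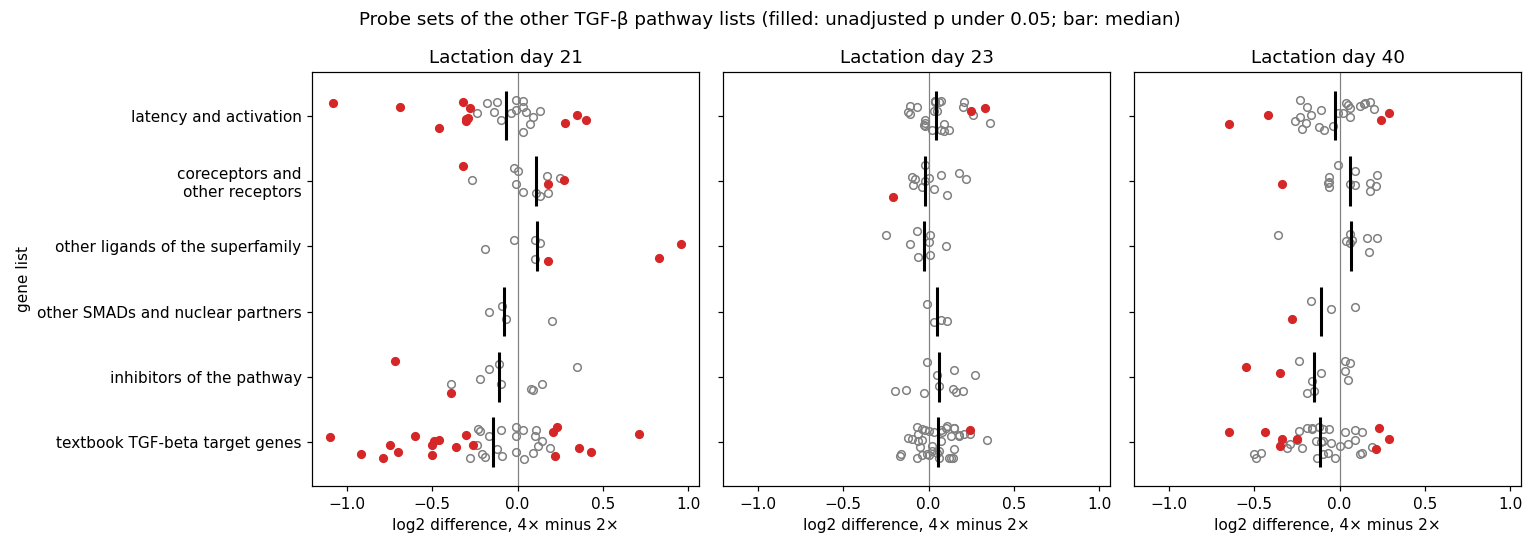
Mean difference (log2 units, 4× minus 2×, x axis) of each probe set of the 6 further pathway lists (y axis) on days 21, 23 and 40; filled red points have an unadjusted limma p under 0.05, and black bars are list medians. On day 21 the target gene list had 13 of 40 probe sets lower and 6 higher, and on day 23 it had 0 lower and 1 higher.

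Among other receptors, 2 of 13 probe sets (8 of 11 genes) were higher on day 21 and 1 lower, or 23.1% against 15.9% of all, with a median of 0.11, and 0 were called without the day 21 pair of cow 1 or without cow 1. ACVR2A and ACVR2B, the type II receptors of activins, had differences of 0.27 (SE 0.12) and -0.32 (SE 0.14), and the coreceptor ENG, found mainly on endothelium, had 0.18 (SE 0.08) on day 21 and -0.21 on day 23. Of other ligands, 3 of 8 probe sets (6 of 14 genes) were higher and 0 lower, or 37.5% against 15.9% of all, with a median of 0.12. These were both probe sets of MSTN (myostatin, a brake on muscle growth), with 0.96 (SE 0.21) and 0.83 (SE 0.19), and INHA, the inhibin alpha subunit, with 0.18 (SE 0.07). MSTN had -0.07 and -0.25 on day 23 and 0.22 and -0.36 on day 40. Neither SMAD4, the common partner of the receptor SMADs, nor SMAD5 or the coactivator CREBBP was called on day 21 (-0.09 for SMAD4, 0.20 and -0.07 for the probe sets of SMAD5 and -0.17 for CREBBP), and on day 40 CREBBP was lower with -0.28 (SE 0.09).

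Inhibitors of the pathway had 2 of 11 probe sets (9 of 17 genes) lower and 0 higher on day 21, or 18.2%, near the 15.9% of all probe sets, with a median of -0.11. These were 1 of 2 probe sets of TGIF1, a SMAD corepressor, with -0.72 (SE 0.23; 6 of 6 cows) and NEDD4L, a ubiquitin ligase that acts on SMADs, with -0.39 (SE 0.14; 5 of 6 cows). Both were also lower on day 40, with -0.55 for this probe set of TGIF1 and -0.35 for NEDD4L. These 2 calls of 11 (18.2%) were near the 20.4% of all probe sets called on day 40. Without cow 1, 0 probe sets of the list were called on that day. Neither this probe set of TGIF1 nor NEDD4L was called on day 23 (0.20 for TGIF1 and 0.27 for NEDD4L). The other probe set of TGIF1 was not called on day 21, 23 or 40. Its values are not given here, and those above stand for 1 probe set of the gene. FST, the secreted antagonist of activins, had 0.35 (SE 0.17) on day 21 and was not called.

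Textbook targets of the pathway formed the longest list, and 13 of their 40 probe sets (27 of 30 genes) were lower on day 21 and 6 higher, or 47.5% against 15.9% of all, with a median of -0.15 against 0.02 over all probe sets. The transcription factors KLF10, KLF11 and JUNB, early responders to TGF-β in many cells, had -1.10 (SE 0.30; Bt.9527.2.S1_at), -0.92 (SE 0.25; Bt.16916.3.S1_at) and -0.70 (SE 0.15) on day 21. Their differences were 0.15, 0.12 and 0.06 on day 23 and -0.49, -0.50 and -0.44 on day 40. On day 40 JUNB was called and these probe sets of KLF10 and KLF11 were not. KLF10 also had probe set Bt.9527.1.A1_at, and KLF11 had Bt.16916.1.S1_at and Bt.16916.2.A1_at. Their values are not given here, and the values above stand for 1 probe set of each gene. CCN2, a matrix signalling protein, was also lower, with -0.50 (SE 0.16) on day 21 and -0.35 (SE 0.16) on day 40. Genes on the other side included the cell cycle inhibitor CDKN2B, with 0.23 (SE 0.08) on day 21 and 0.23 (SE 0.08) on day 40, and PTHLH, the hormone that mobilises calcium for milk, with 0.71 (SE 0.22; 6 of 6 cows) on day 21. TGFB2 and TGFBR2 among the members also stood in gene lists that the study selected on these samples. So did KLF10, KLF11, JUNB, CCN2, THBS1, MSTN, TGIF1, LTBP1, ENG and PTHLH among the genes of these pathway lists. The directions of all these genes are not independent evidence.

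On the later days the share of targets called was near that of all probe sets. On day 23, 1 of the 40 target probe sets was higher and 0 lower (2.5%, against 2.64% of all), and on day 40, 3 were higher and 5 lower (20%, against 20.4% of all), with a median of -0.11. The change from day 21 to day 23 was called for 13 of the 40, 11 upward and 2 downward, against 10.8% of all probe sets. Without the day 21 pair of cow 1, the day 21 counts were 2 higher and 8 lower for the targets, 3 and 3 for latency and activation, 2 and 0 for other ligands, and 0 and 1 for the inhibitors, when 5.57% of all probe sets were called.

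Markers of several cell types also differed between the glands on day 21, when 15.9% of all probe sets were called. The marker lists shared genes with the pathway lists. Of the target genes, 6 were also markers: COL1A1, COL1A2, COL3A1 and VIM (fibroblast), and TAGLN and ACTA2 (myoepithelial). So were MMP9 (neutrophil), ENG (endothelial) and DCN (fibroblast) of other pathway lists. Of ductal and progenitor luminal markers, 7 of 11 probe sets were lower in 4× glands and 0 higher, and 2 were lower without the day 21 pair of cow 1. The list held 8 of 10 genes, of which KRT7, KRT8, KRT18, KIT and CLDN4 were also among those the study selected on these samples. The mean signal of the list lay between 7.54 and 7.95 in 4× glands and between 7.78 and 9.26 in 2× glands, where cow 1 was the highest, and the differences within cows 1 to 6 were -1.40, -0.26, -0.50, -0.10, -0.08 and -0.42. On day 23 the differences of the list averaged 0.12 ± 0.15 (SD, n = 6) and on day 40 -0.19 ± 0.32.

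Secretory markers had 4 of 13 probe sets higher on day 21 and 0 lower, but 0 were called without cow 1, without its day 21 pair or with arrays scaled to reference genes, and the list difference of 0.11 ± 0.21 was 0.54 in cow 1. Macrophage markers had 5 of 10 probe sets lower and 2 higher (3 lower and 1 higher without the day 21 pair of cow 1), with list means of 7.70 to 7.89 in 4× glands and 7.70 to 8.21 in 2× glands. Neutrophil markers had 2 of 7 lower and 0 higher (4.82 to 5.19 in 4× glands, 4.76 to 6.19 in 2× glands). Adipocyte markers had 3 of 8 higher and 0 lower (7.38 to 7.68 in 4× glands, 6.93 to 7.58 in 2× glands), and endothelial markers 3 of 14 higher and 0 lower (6.44 to 6.99 in 4× glands, 6.49 to 6.89 in 2× glands). Without the day 21 pair of cow 1 the counts of these last lists were 1, 2 and 1. T and B cell markers had 3 of 13 lower, myoepithelial markers 2 of 11 and fibroblast markers 1 of 15. In each of these 0 were higher, and without that pair 2, 0 and 0 were lower. The study's selected gene lists also held CSF1R, CD14, C1QC, MRC1 and CYBB (macrophage), S100A12 (neutrophil), KDR and ENG (endothelial), FABP4 (adipocyte) and FBLN1 (fibroblast). The directions of these genes are thus not independent evidence.

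Over the 18 differences, which share cows and arrays, the TGFB2 difference had a correlation of 0.79 with that of the ductal list (0.61 over the 15 differences without cow 1) and of -0.79 with that of the adipocyte list (-0.60 without cow 1). The TGFBR2 A difference had one of 0.81 with the secretory list (0.67 without cow 1), -0.66 with the ductal list (-0.55), -0.64 with the neutrophil list (-0.69), -0.58 with the macrophage list (-0.61), 0.63 with the adipocyte list (0.31) and 0.41 with the endothelial list (0.71). TGFB2 and TGFBR2 A thus moved with markers of several cell types at once. TGFBR2 B had 0.53 with the secretory list (0.68 without cow 1), -0.55 with the ductal list (-0.55) and -0.63 with the neutrophil list (-0.46). It had -0.54 with the macrophage list (-0.41), 0.33 with the adipocyte list (0.26) and 0.47 with the endothelial list (0.73). These had the same signs as those of TGFBR2 A. SMAD3 A, which was not called on any day, had -0.78 with the ductal list (-0.61) and 0.77 with the adipocyte list (0.57). TGFB1 and TGFBR1 had no correlation above 0.47 in size with any marker list over the 18 differences. Of the probe sets in these lists, 2 of 11 ductal, 0 of 13 secretory, 0 of 10 macrophage, 3 of 7 neutrophil, 4 of 8 adipocyte and 3 of 14 endothelial ones had a mean under 5, and the part of these cell types in the TGFB2 and TGFBR2 differences was not tested.

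The genes whose within-cow differences were most like those of a member were listed by Pearson correlation over the 18 differences, as a description. For TGFB2 they were PDE8A (0.96), ATP2B1 (0.93) and EXOC5 (0.92), with 0.92, 0.85 and 0.91 without cow 1. For TGFBR2 A they were RAPGEF2 (0.93), ZC3H7A (0.91) and BREH1 (0.91), with 0.83, 0.83 and 0.78 without cow 1. The 3 likest genes had lower correlations for the other members, from 0.75 to 0.77 for TGFB1 (ALPI, USP14, KPNA7), 0.77 to 0.83 for TGFBR1 (QRICH1, SLC52A2, PLEKHF2), 0.80 to 0.85 for INHBA (GPATCH2L, ERLIN1, MECR), 0.82 to 0.84 for TGFB3 (CKS2, RPS14, CYP39A1), 0.85 to 0.86 for SMAD2 (TMEM185B, CTSV, TAX1BP3) and 0.86 to 0.88 for SMAD3 A (GRWD1, DOHH, HAGHL). Between members the correlation of differences was -0.72 for TGFB2 with SMAD3 A, -0.63 for TGFB2 with INHBA and -0.66 for TGFB3 with INHBA over the 18 differences, and -0.49, -0.48 and -0.68 without cow 1. TGFB2 and TGFBR2 A, the members called in opposite directions on day 21, had -0.28 over the 18 differences and 0.04 without cow 1.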

How the data were processed

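Mammary biopsies of 6 cows on 3 days were measured on 36 Affymetrix bovine arrays. The authors corrected, normalized and summarized the probe signals with the Robust Multichip Average (RMA, version not given in the sources used here) and deposited log2 signals for 24128 probe sets, of which 112 controls were left out. The sample titles give the milking group, day and replicate number of each array. The replicate number was taken as the cow, and glands were paired by it. As a check of the pairing, deviations from the group means correlated positively in 18 of 18 pairs (0.242 to 0.665), and 16 of the 4× glands were most like the 2× gland of their own cow among those of that day. The check was made within days, and the matching of cows between days was not checked. Probe-level signals, slides and scan dates were not used here. Precision is limited by the number of cows, since all 36 arrays came from the same 6 animals.

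The 18 within-cow differences entered limma 3.58.1 (R 4.3.3), which fitted 1 mean per day and pooled the spread over days. No term linked the differences of the same cow on different days. Days within a milking group were compared with limma on the 36 arrays with cow as a fixed block. P-values were adjusted over 24016 probe sets (Benjamini-Hochberg). The fit was tested on simulated data. Symbols came from the array's annotation, with a single symbol for 13318 probe sets of the file.

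The members and lists were chosen with earlier results of these data known. All members were named, with the 3 probe sets of smallest unadjusted p on day 21 of each pathway list and the 3 genes most like each member in the 18 differences. LTBP1, ITGB6, CCN2, CDKN2B and PTHLH fall outside this rule and were chosen after their values were seen. The alternatives tried were leaving out the replicate block, a fixed or random cow term, trend and robust moderation, the spread of 1 day only, a filter at a mean of 5, scaling to 5 reference genes (7 probe sets), centring on array medians, each cow left out and the day 21 pair of cow 1 left out. Python 3.11.15 wrote the tables (pandas 2.3.3 and numpy 2.4.6) and drew the plots (matplotlib 3.10.9). No sequence is shown, since the tables used here hold none for these genes.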

Additional observations from a re-analysis of the deposited data

Results flagged for a closer look

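In 90 groups of 6 values of the members (levels in a group of glands, or differences within cows on a day), 1 cow lay far from the others in 5, and chance flags about 1 in 20. These were the TGFB2 level of cow 1 in 2× glands on day 23 (9.08), the INHBA difference of cow 3 on day 23 (-0.63), the TGFBR2 B level of cow 5 in 4× glands on day 23 (6.11), the SMAD3 A level of cow 3 in 4× glands on day 23 (6.51) and the SMAD3 B level of cow 1 in 2× glands on day 21 (5.45). For 3 results the 4× minus 2× difference changed between days by a test of the change itself, at an unadjusted p under 0.05 in limma. They were the change of TGFB2 from day 21 to day 23 (0.50), that of INHBA from day 21 to day 23 (-0.27) and that of TGFBR2 A from day 21 to day 40 (-0.34), and none of these passed the adjustment. The test did not pair the days of a cow.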

How the results depend on the processing

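Over the 14 called member differences, 182 values under alternatives gave 141 calls that held, 41 that were lost and 0 reversals, and the lowest adjusted p was 0.0798. The number of called member probe sets on day 21 (3) was 2 or 3 under every alternative. Without cow pairing, that is with no replicate block, the number was 1 on day 40 (in place of 3), 1 for the change from day 21 to day 23 (2) and 0 for day 40 against day 21 in 4× glands (1), TGFB2 was not called on day 21 (unadjusted limma p 0.0614) or day 40 (0.1), and leaving out the block moved no other count of member calls by over 1.5 times. With cow as a fixed block on the 36 arrays the change to day 23 had 1 call (INHBA, with TGFB2 lost), and scaling to reference genes left 0 for day 40 against day 21 in 4× glands. Without the day 21 pair of cow 1, 1 member was called on day 23 (in place of 0) and 0 changed to day 23. With each cow left out in turn, the calls ranged over 0 to 1 on day 23, 1 to 3 on day 40, 0 to 4 for the change to day 23, 0 to 1 for the change to day 40, 0 to 2 and 0 to 1 in 4× glands on days 40 and 23 against day 21, and 0 to 2 and 1 to 4 in 2× glands on the same days.

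Over all probe sets the count called on day 21 (3826) was 1858 with no replicate block, 1338 without the day 21 pair of cow 1, 1569 without cow 1 and 2479 with the spread of that day only. On day 40 (4910) it was 2932 with no replicate block and 3108, 3139 and 2646 without cows 1, 3 and 6. With no replicate block it was also 277 on day 23 (635), 1082 for the change to day 23 (2593), 586 for the change to day 40 (1444), 1171 and 410 in 4× glands on days 40 and 23 against day 21 (2085 and 912), and 881 and 2367 in 2× glands (1631 and 3878). The change to day 23 had 1193 without cow 1 and 1373 without its day 21 pair, the change to day 40 had 935 without cow 6, the 4× glands on day 23 had 554 without cow 2, and the 2× glands had 1042 on day 40 without cow 1 and 1443 and 2205 on day 23 without cows 1 and 3. Calls by direction on day 40 were 2783 higher and 2127 lower, but 916 and 2752 with arrays scaled to reference genes and 1758 and 2941 with arrays centred on their medians, and on day 23 they were 333 and 302, but 100 and 336 with the reference genes. For the change to day 40 they were 651 and 793, but 215 and 798 (reference genes) and 453 and 1042 (medians), and in 2× glands on day 40 against day 21 they were 736 and 895, but 725 and 467 (reference genes). No direction of a called member difference turned under these scalings.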
